A study of Mus musculus with 4 samples.

Results

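The aryl hydrocarbon receptor (AHR) genes were followed here in mouse ureters cultured with and without an inhibitor of WNT secretion. The 8 genes are Ahr, its partners Arnt and Arnt2, its repressor Ahrr, and the target genes Cyp1a1, Cyp1b1, Tiparp and Nqo1, with Ahrr being itself a target. All probes that carry 1 of these names on the array were taken, which gave 13 probes of 39429 for 8 genes of 29924 gene names. Each of the 8 genes had a probe well above background and was tested, beside 22455 genes tested in all.

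The tissue came from wild-type NMRI embryos at E12.5. Ureters were explanted and kept for 18 h with IWP-2 (10 µM) or with its solvent DMSO as control, and per the study's methods these cultures received no serum. IWP-2 inhibits Porcupine, the acyltransferase of WNT ligands, and reaches epithelium and mesenchyme of the explant alike. The data are 4 two-color arrays, each with RNA of 1 treated and 1 control pool of several ureters. Treated RNA was in the red channel on arrays 1 and 3 and in the green channel on arrays 2 and 4. Nothing in the labels says whether the pools came from separate litters, so that p-values measure the spread between these 4 arrays only. The comparison asks how transcripts of the receptor, its partners and its targets differed when WNT secretion was blocked.

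AHR is a ligand-activated transcription factor of the bHLH-PAS family that waits in the cytoplasm, bound to HSP90 and co-chaperones. Ligands such as dioxins, polycyclic aromatic hydrocarbons and tryptophan metabolites send it to the nucleus, where it pairs with ARNT and binds the dioxin response element, whose core reads GCGTG. Its targets include enzymes that oxidize the ligands (CYP1A1, CYP1B1) and feedback inhibitors of the receptor (AHRR, TIPARP), while NQO1 is shared with the oxidative stress factor NRF2.

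The proximal promoters of the targets that moved furthest are shown first, since they hold GCGTG, the core letters of the element that AHR binds. Whether the receptor binds at these places was not tested. They are the 250 bases before the annotated start, from RefSeq on GRCm38.p6, written 5′ to 3′ on the strand of the gene, and such a window was at hand for 7 of the 8 genes (not for Ahr). Capitals mark GCGTG, or CACGC where the match lies on the opposite strand, and in Ahrr also the longer element TNGCGTG, which contains the core nearest to the start. The windows are chr13:74292332-74292581 (minus strand) for Ahrr, chr17:79715062-79715311 (minus strand) for Cyp1b1, and chr9:57697363-57697612 (plus strand) for Cyp1a1.
Ahrr: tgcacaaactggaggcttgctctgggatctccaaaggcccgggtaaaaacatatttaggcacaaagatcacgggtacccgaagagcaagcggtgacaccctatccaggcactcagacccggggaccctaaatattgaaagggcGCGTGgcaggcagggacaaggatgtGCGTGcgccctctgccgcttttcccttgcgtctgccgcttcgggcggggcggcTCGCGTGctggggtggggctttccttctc
Cyp1b1: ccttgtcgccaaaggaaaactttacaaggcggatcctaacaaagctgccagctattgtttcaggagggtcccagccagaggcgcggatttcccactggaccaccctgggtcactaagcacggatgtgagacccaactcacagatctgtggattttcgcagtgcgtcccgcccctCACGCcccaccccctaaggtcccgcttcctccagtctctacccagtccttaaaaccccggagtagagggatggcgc
Cyp1a1: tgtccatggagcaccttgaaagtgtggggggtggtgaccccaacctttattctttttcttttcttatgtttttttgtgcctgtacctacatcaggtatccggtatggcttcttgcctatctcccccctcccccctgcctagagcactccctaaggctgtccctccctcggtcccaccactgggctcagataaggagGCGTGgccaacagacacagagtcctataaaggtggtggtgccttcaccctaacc
Ahrr held 3 cores, starting at bases -107, -82 and -27 from the start, and Cyp1b1 and Cyp1a1 held 1 each, at -76 and -54. In Tiparp 1 core lay at -170 on the opposite strand (gtccggagCACGCgcacggga), and in Arnt 1 lay at -29 (agtttgggGCGTGtcttctgc). The windows of Nqo1 and Arnt2 did not hold these letters. Over all 32851 windows of this length, searched on both strands, 28.2% held GCGTG and 4.1% held TNGCGTG, so that a single core is a common find. No window of the 7 genes held CTTTGAT (a TCF/LEF motif, in 3.21% of all windows). This speaks only of these letters in these windows. A loose pattern for the antioxidant response element had no match in the windows of the 7 genes, and lay in 37.2% of all windows. Other spellings of this element were not searched, so that its absence is not shown. Of the 3 genes printed, Ahrr and Cyp1b1 were lower with IWP-2 and Cyp1a1 was higher.

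All 4 arrays were of like quality. Median raw intensities of the gene spots spanned 368 to 711 for control RNA and 385 to 694 for treated RNA, over a local background of 28 to 77, and no spot was saturated. These spans went with the dye, as red channels gave 609 to 711 and green channels 368 to 396, whichever group they held. In each channel at least 75.1% of probes stood clear of the background. The WNT target genes Axin2, Lef1, Tcf7, Sp5 and Nkd1 were all lower with IWP-2 (5 of 5) with log2 ratios from -2.72 to -1.31, which checks the treatment labels.

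Altogether 4 of the 8 genes (Ahr, Ahrr, Cyp1b1, Tiparp) were lower with IWP-2, 2 (Cyp1a1, Nqo1) were higher, and the partners Arnt and Arnt2 did not pass the test. The test is limma over all genes with a dye term, with Benjamini-Hochberg adjustment and a threshold of 0.05, and it called 15.0% of all genes lower and 18.1% higher. A call as such was thus frequent on these arrays, and the sizes tell the 8 genes apart. At 2-fold or more only 0.735% of all genes were called lower, and Ahr, Ahrr and Cyp1b1 were among them. Cyp1a1 came close to the 2-fold mark from the other side (0.174% of all genes higher). The median size of the log2 ratio was 0.68 over the 8 genes and 0.0955 over all genes tested. Since the 8 genes were listed with earlier results of these data known, these medians only describe and do not test the set.

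**Figure D1:**
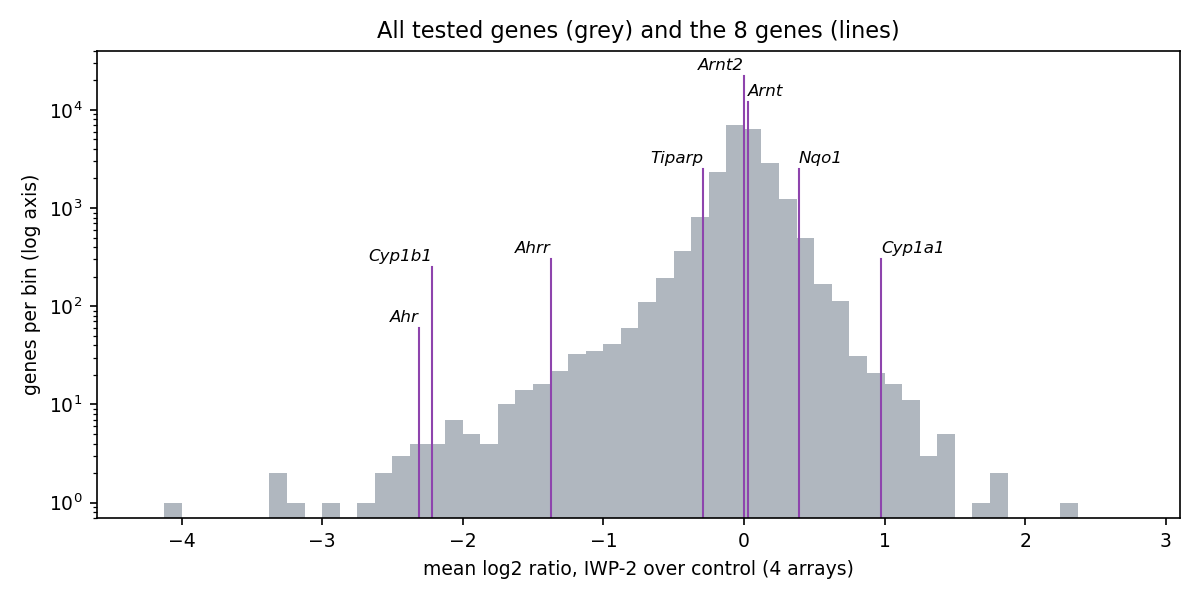
Histogram of the mean log2 ratio (IWP-2 over control, 4 arrays) of the 22455 genes tested, on a log count axis, with a line at the value of each of the 8 genes. The heights of the lines carry no value. Ahr, Cyp1b1 and Ahrr lie in the lower tail, Cyp1a1 lies in the upper tail, and Arnt and Arnt2 lie at the center.

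Ahr, the receptor itself, was strongly lower with IWP-2. Its probe (transcript NM_013464, mm9 chr12:36182724-36182783, minus strand) gave normalized intensities of 27198, 23342, 26581 and 23294 in the control pools of arrays 1 to 4 and of 5213.5, 4974, 4783 and 5227 in the treated pools. Every treated pool lay far below every control pool, and the treated pools were close to each other (5049 ± 212, SD, n = 4) at a control mean of 25104 ± 2077. The log2 ratios were -2.38, -2.23, -2.47 and -2.16, with a mean of -2.31 ± 0.14 (SD, n = 4) and a limma SE of 0.041, a 4.96-fold decrease (limma, adjusted p = 3.09e-06). Ahr ranked 13 from the lowest of 22455 genes. The normalized intensity is the linear channel value after background correction, loess and Aquantile, in arbitrary units, and can be set only against the same probe in the other pool.

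The second Ahr probe (mm9 chr12:36188523-36188582) gave a smaller decrease. Its intensities were 2165, 2156, 2223 and 1818 in the control pools and 763, 697, 733 and 708 in the treated pools, again without overlap. The log2 ratios averaged -1.52 ± 0.12 (SD, n = 4; limma over all probes, adjusted p = 1.43e-05). The brighter probe thus lay below the dimmer one by -0.79 ± 0.13 on the log2 scale. The gap was -0.73 without the offset that the background correction adds, and -0.72 with the scanner software's own processed signals. Direction and call were alike for both Ahr probes, while the size depended on the probe.

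The partners did not follow the receptor. Arnt encodes the obligate dimerization partner of AHR, which also serves the hypoxia factors. Its probe (NM_001037737, mm9 chr3:95301081-95301140) gave 19809, 17159, 18339 and 16455 in the control pools and 18908, 18184, 17852 and 17960 in the treated pools. The groups overlapped over most of their range. The mean log2 ratio was 0.03 ± 0.09 (SD, n = 4; limma, adjusted p = 0.640), with a 95% interval from -0.07 to 0.12.

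A second Arnt probe gave a like value (0.07 ± 0.06). The third, dim probe (chr3:95264558-95264617, assigned to another transcript) gave -0.24, 0.65, -0.58 and 0.66. Its sign went with the dye order, as the mean was -0.41 on the arrays with treated RNA in red and 0.66 on those with treated RNA in green, and its mean of 0.12 carries an SD of 0.63.

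Arnt2 encodes the ARNT paralog known best from neural tissue. Its probe (NM_007488, chr7:91395682-91395741) gave 2019, 2189, 2195 and 1875 in the control pools and 2098, 1804, 2411 and 1993 in the treated pools. Treated pools were higher on 3 arrays and lower on array 2. The mean was 0.00 ± 0.19 (SD, n = 4; limma, adjusted p = 0.999), with an interval from -0.16 to 0.16. For both partners these intervals leave out a change of the size seen for Ahr, but not a small one.

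**Figure D2:**
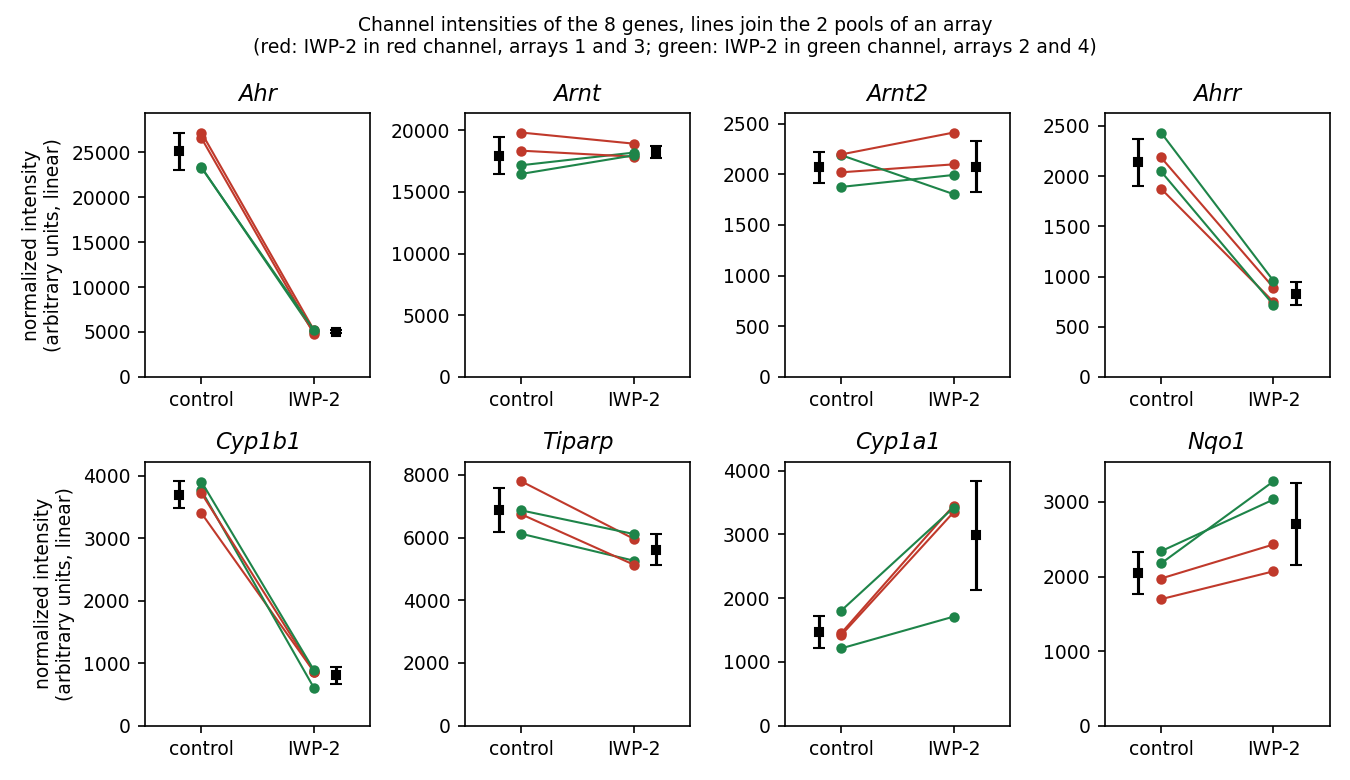
Normalized channel intensity (linear, arbitrary units, each axis from 0) of the probe used for each of the 8 genes in control and IWP-2 pools. Points are pools, lines join the 2 pools hybridized to an array (colored by the channel of the treated RNA), and squares with bars are the mean ± SD of 4 pools. Lines of Ahr, Ahrr, Cyp1b1 and Tiparp all fall and those of Cyp1a1 and Nqo1 all rise, while the lines of Arnt and Arnt2 go both ways.

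Ahrr encodes the AHR repressor, which competes with AHR for ARNT and is itself switched on by AHR. Its probe (NM_009644, chr13:74348566-74348612) gave 1875, 2047, 2187 and 2434 in the control pools and 747, 717, 889 and 957 in the treated pools. All treated pools lay below all control pools. The log2 ratios of -1.33, -1.51, -1.30 and -1.35 had a mean of -1.37 ± 0.10 (SD, n = 4), a 2.59-fold decrease (limma, adjusted p = 1.71e-05), and rank 77 from the lowest. Among the 6 genes that passed the test, Ahrr had the smallest spread between arrays.

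A second, dim Ahrr probe (chr13:74350685-74350744) gave 298.5, 303, 301 and 310 in the control pools and 152, 148, 191 and 170 in the treated pools, a change of -0.88 ± 0.17 (SD, n = 4; limma over all probes, adjusted p = 0.000196). The gap between the Ahrr probes was -0.49 here, -0.26 without the offset and -0.10 with the processed signals. The offset draws dim ratios towards 0, so that the gap moved with the background correction, as that between the Ahr probes hardly did.

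Cyp1b1, a cytochrome P450 that oxidizes polycyclic hydrocarbons, estrogens and retinoids, changed by about as much as the receptor, and which of them fell further depended on the setting. With the mean of all probes of a gene, Ahr changed by -1.92 and Cyp1b1 by -2.22. The Cyp1b1 probe (NM_009994, chr17:80106547-80106606) gave 3399, 3762, 3717 and 3902 in the control pools and 863, 604, 862 and 887 in the treated pools. The groups stood far apart, and the treated pool of array 2 was the lowest. The log2 ratios were -1.98, -2.64, -2.11 and -2.14, with a mean of -2.22 ± 0.29 (SD, n = 4), a 4.64-fold decrease (limma, adjusted p = 2.41e-05), and rank 17 from the lowest.

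Tiparp encodes an ADP-ribosyltransferase that AHR induces and that marks AHR for degradation. It fell only slightly. Its brighter probe (NM_178892, chr3:65357710-65357769) gave 7797, 6122, 6745 and 6869 in the control pools and 5962, 5264, 5136 and 6114 in the treated pools. The groups just missed each other, with the lowest control pool above the highest treated pool. The mean log2 ratio was -0.29 ± 0.12 (SD, n = 4), a 1.22-fold decrease (limma, adjusted p = 0.00256), and rank 1390 from the lowest. The second probe gave -0.30 ± 0.16, and its groups did not overlap either. Ahr, Ahrr, Cyp1b1 and Tiparp were the 4 of 8 genes whose channel levels did not overlap between the groups, which held for 22.4% of all genes.

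Cyp1a1, the P450 most often read as a sign of AHR activity, went the other way. Its probe (NM_009992, chr9:57551535-57551594) gave 1449.8, 1212, 1418 and 1803 in the control pools and 3454, 1711, 3349 and 3421 in the treated pools. Treated RNA was higher on each array, but the treated pool of array 2 lay below the control pool of array 4, so that the groups overlapped. The log2 ratios were 1.25, 0.50, 1.24 and 0.92, with a mean of 0.98 ± 0.35 (SD, n = 4), a 1.97-fold increase (limma, adjusted p = 0.000298), and rank 42 from the highest. The means were 1.25 with treated RNA in red and 0.71 with treated RNA in green, so that the direction held in both dye orders.

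Nqo1 encodes a quinone reductase of the antioxidant response that both AHR and NRF2 can induce. Its probe (NM_008706, chr8:109912440-109912499) gave 1696, 2338, 1973 and 2175 in the control pools and 2069.7, 3033, 2430 and 3277 in the treated pools. The groups overlapped, although treated RNA was higher on 4 of 4 arrays. All 6 genes past the test kept 1 direction on 4 of 4 arrays, as did 43.4% of all genes. The mean log2 ratio was 0.39 ± 0.14 (SD, n = 4), a 1.31-fold increase (limma, adjusted p = 0.00213), and rank 791 from the highest. It did not pass with the authors' table of fold changes (adjusted p = 0.0512), nor with the channels taken as separate samples (adjusted p = 0.120).

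**Figure D3:**
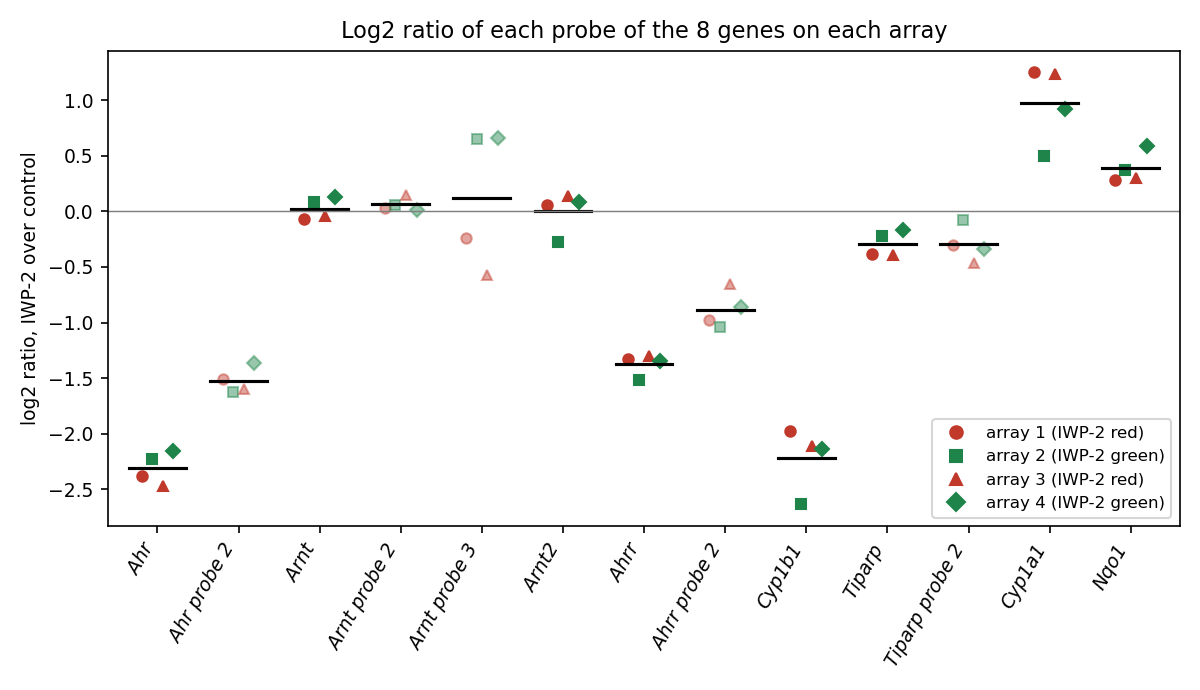
Log2 ratio of IWP-2 over control of each of the 13 probes on each array. Symbols mark arrays, color marks the channel of the treated RNA, pale symbols are probes not used in the test, and black lines are means of 4 arrays. Probes of Ahr, Ahrr and Cyp1b1 lie below 0 and those of Cyp1a1 and Nqo1 above 0 on each array, whereas the third Arnt probe splits by dye order.

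The genes were also set against each other on each array, in 4 pairs. Cyp1a1 exceeded Cyp1b1 by 3.23, 3.13, 3.35 and 3.06 on the log2 scale. The mean difference of 3.19 ± 0.12 (SD, n = 4) had less spread than the ratio of either gene, as array 2 gave the lowest ratio for both. It had the same sign on 4 of 4 arrays, and an exact sign-flip permutation test gave p = 0.13 (two-sided; adjusted over the 4 pairs, 0.167), the smallest that 4 arrays allow.

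The receptor lay below its partner Arnt by -2.34 ± 0.07 and below its repressor Ahrr by -0.94 ± 0.21 (SD, n = 4), each on 4 of 4 arrays and with the same exact permutation p of 0.13 (adjusted, 0.167). The distance to Ahrr depended on the Ahr probe. It was -0.79 with all probes of a gene averaged, and the second Ahr probe (-1.52) lay close to the Ahrr probe used in the test (-1.37). The partners did not differ from each other beyond their spread. Arnt2 minus Arnt was -0.03 ± 0.24, with differences from -0.36 to 0.17 on single arrays (exact permutation test, p = 0.875).

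The study's own cut-offs asked for an intensity above 100 together with more than a 2-fold change in every array, stated for a pair of arrays of a stage. Here they were applied to all 4 arrays and to the processed signals of every probe, so that counts can differ from the study's. With no test, Ahr, Ahrr and Cyp1b1 were lower, as were 104 of the 29924 gene names (0.348%). Cyp1a1 exceeded 2-fold on arrays 1 and 3 only and was not kept among the genes that were higher (0.0735%). Tiparp, Nqo1, Arnt and Arnt2 were not kept either.

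Genes whose 4 log2 ratios came closest to those of the members were sought by the Euclidean distance over the 4 arrays. Closest to Ahr were Ptger2 (distance 0.255, mean -2.41 ± 0.13), a prostaglandin E2 receptor, Alx1 (0.381, -2.36 ± 0.10), a homeobox factor, and Fzd10 (0.45, -2.30 ± 0.12), a WNT receptor. Closest to Cyp1b1 were Slc22a3 (0.268, -2.29 ± 0.21), an organic cation transporter, Scube2 (0.427, -2.12 ± 0.15), which aids the release of hedgehog ligands, and again Fzd10 (0.464). Closest to Cyp1a1 were Ptchd1 (0.488, 1.12 ± 0.21), Gpnmb (0.523, 0.99 ± 0.18), a membrane glycoprotein, and Twist1 (0.558, 0.85 ± 0.08), a bHLH factor. With 4 points per gene the distance mostly ranks genes by their mean.

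Genes of the wider AHR pathway changed by less than Ahr, Ahrr, Cyp1b1 and Cyp1a1. No gene of the pathway lists described next changed by 0.5 or more on the log2 scale, and those named were picked after their values were seen. Of 10 chaperones, coactivators and corepressors of the receptor, 1 was lower (Ptges3, the HSP90 co-chaperone p23, -0.17) and 2 were higher (Ncoa1, 0.16, and Ncoa3, 0.28). Ptges3 fell only with treated RNA in red (-0.35 and -0.49), and gave 0.17 and 0.007 with treated RNA in green. Over 16 alternatives, from 0 to 1 gene of this list was lower. The list median was 0.02. Hsp90aa1 (-0.06) and Hsp90ab1 (0.15), the HSP90 chaperones that hold the receptor in the cytoplasm, stayed short of the threshold.

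Of the 10 other bHLH-PAS factors tested, 2 were lower (Sim2, -0.14, and Npas4, -0.22) and 3 were higher (Epas1, 0.32, Hif3a, 0.32, and Sim1, 0.41), with a median of -0.05. Npas1 and Npas2 missed the background criterion and were not tested. Of the family members tested, Arnt and Arnt2 included, none but Ahr and Ahrr changed by more than Sim1.

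Other targets were sorted by the factor they are best known for. Of 11 other genes of the AHR battery tested of 16 listed, 1 was lower and 4 were higher (median 0.09). Slc7a5, an amino acid transporter, changed by -0.48, and Gsta2 by 0.35, Gstt2 by 0.32, Ugt1a6a by 0.24 and Ugt1a6b by 0.42, all of which encode conjugating enzymes. Ugt1a6a and Ugt1a6b are near-identical paralogs whose signals a probe may share. Cyp1a2, the remaining CYP1 gene, was not well above background on all arrays of a group and was not tested, and the same held for Serpinb2 and Ereg. No probe carried the names Ugt1a1 and Gsta1.

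Of 20 NRF2 targets, the group to which Nqo1 also belongs, 2 were lower (Me1, -0.17, and Tkt, -0.26) and 5 were higher (Gclm, 0.23, Slc7a11, 0.20, Hmox1, 0.31, Gsr, 0.23, and Osgin1, 0.42), with a median of 0.01. Of 12 targets of the hypoxia factors, which share ARNT with AHR, none was lower at the adjusted threshold (1 at an unadjusted p below it) and 3 were higher (Bnip3, 0.20, Adm, 0.32, and Pdk1, 0.27), with a median of 0.06. Of 4 genes of tryptophan breakdown tested of 9 listed, which yields AHR ligands, none was lower (0 also unadjusted) and 1 was higher (Afmid, 0.13). Afmid gave 0.23 and 0.25 with treated RNA in red, but -0.02 and 0.04 with treated RNA in green. Over 16 alternatives, from 0 to 1 gene of this list was higher. Ido1, Ido2 and Tdo2, the enzymes of the first step, missed the background criterion, as did Kynu and Aadat. These counts stand beside 33.1% of all genes called in either direction, and no list median exceeded 0.09 in size.

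**Figure D4:**
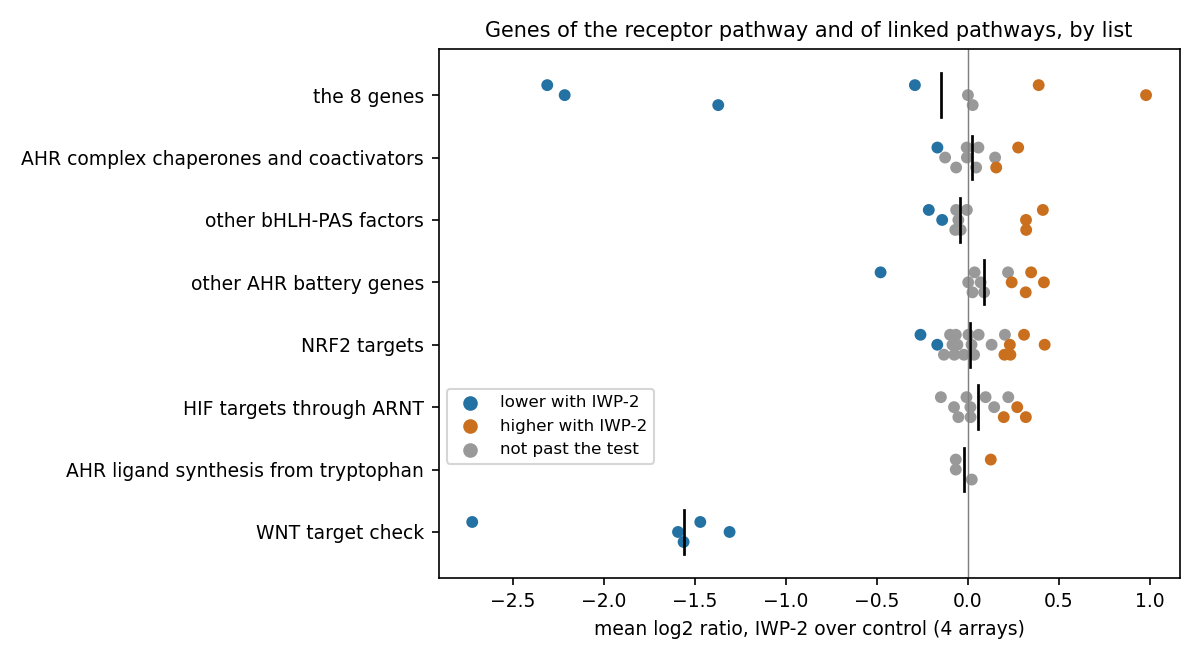
Mean log2 ratio of IWP-2 over control of each gene tested, by list, with the 8 genes on top and the WNT target check at the bottom. Points are genes (vertical offsets only separate them), colored by the limma call, and black bars are list medians. The pathway lists stay within -0.48 and 0.42, while Ahr, Cyp1b1 and Ahrr reach the range of the WNT targets.

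Marker genes of the cell types of the explant moved as well. The marker counts here and below stand beside 15.0% of all genes called lower and 18.1% called higher. The background criterion was passed by 7 of 7 markers of epithelium and 7 of 7 of mesenchyme, as it was by 22455 of 29924 gene names. Passing it does not by itself show that a tissue was present. Smooth muscle markers were lower in 6 of 6 (median -0.65, from -0.98 to -0.18), and their summed intensity ranged from 31130 to 45567 in the control pools and from 19626 to 28233 in the treated pools. Ahr, Ahrr and Cyp1b1 each fell by more than any of these 6 genes, while the neural crest marker Ednrb (-1.38) fell about as far as Ahrr (-1.37). Epithelial markers were higher in 7 of 7 (median 0.30, from 0.24 to 0.34), with sums of 179910 to 195170 and 205260 to 255390. Cyp1a1 rose by more than any of these 7 genes, and Nqo1 (0.39) by little more than the highest (Krt18, 0.34). Among markers of other lists, Cd68 (0.40), Erbb3 (0.43) and Pdgfrb (0.80) rose by more than Nqo1.

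Of the 7 mesenchymal markers, 1 was lower (Tbx18, -0.74), 1 was higher (Pdgfrb, 0.80) and 5 did not pass (median 0.09), and their sums overlapped (474680 to 527710 against 502170 to 569500). Markers of other cells were higher in 4 of 6 for endothelium, 4 of 6 for blood and 3 of 5 for macrophages, with none lower and with medians of 0.19, 0.27 and 0.15. Among the blood markers called higher, the sign of Hbb-y went with the dye order. It gave 0.61 and 0.73 with treated RNA in red, but -0.10 and -0.14 with treated RNA in green. Hba-a1 gave -0.03 on array 2. Summed intensities in control and treated pools were 53037 to 61289 and 60573 to 70928 for endothelium, 283290 to 430630 and 404700 to 456880 for blood, and 11407 to 14170 and 13438 to 15734 for macrophages. Nephron progenitor markers were higher in 5 of 6 and neural crest markers in 3 of 6, with 1 lower in each (Crym, -0.96, and Ednrb, -1.38). Their summed intensities were 46205 to 50529 in control and 51481 to 58673 in treated pools for nephron progenitors, and 56245 to 63204 and 40693 to 60403 for neural crest. Six2, a nephron progenitor factor, was higher by 1.14, which is more than the 0.98 of Cyp1a1. Of the liver markers Apoa1 and Ttr missed the background criterion, Afp (0.25) was higher, and Alb (0.05) did not pass the test.

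In such bulk RNA, fewer cells of a type and less RNA per cell cannot be told apart. Whether the share of cell types shifted, and whether this had a part in the changes of the AHR genes, was not tested.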

How the data were processed

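Each of the 4 arrays compared 1 pool of IWP-2-treated with 1 pool of control ureters, with the dye order balanced. The authors extracted the scans with Agilent Feature Extraction 10.7.3.1. The deposited intensity per spot and channel was used raw (mean signal, median background). The deposited processed intensity and the authors' table of signed fold changes, whose normalization is not given in the sources used here, served as alternatives. The direction of the table was set by its match to the processed ratios (r of 0.988 to 0.992 over 20405 probes). Which channel held treated RNA was taken from the dye labels of each array. The deposited log10 ratio, which the authors' software gives for each spot, served only to check that ratios were red over green.

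Intensities were corrected in limma 3.58.1 (R 4.3.3) with normexp (offset 50) and normalized by loess (span 0.3). Control and outlier spots (3.01% to 3.38%) were left out, and up to 4 spots of a probe were averaged. For the 13 probes the median SD between spots was 0.0372 (log2). A gene was tested if more than 0.5 of the spots of its probe were well above background in 1 group on all 4 arrays, and the brightest probe stood for it. lmFit and eBayes used the treatment direction and a dye term, adjusted over 22455 genes (17847 with a RefSeq name), and were tested on simulated data. The simulation drew its noise from the fitted model and held only changes larger than those of Tiparp and Nqo1. It therefore says nothing about changes of their size or about other noise. The number of arrays limits the precision.

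The 8 genes, the lists and the tests were chosen with earlier results of these data known. The plan was to name the 8 genes, the WNT check genes, list members past the test at 0.5 or more, and the 3 genes nearest to Ahr, Cyp1b1 and Cyp1a1. No pathway list member reached 0.5, so that all those named, and the marker genes named, were chosen after their values were seen. Probe positions are those of the files (mm9), and with no annotation of that build no exon was assigned. Alternatives changed the background, normalization, filters, probe choice, dye term and variance model, or left out an array.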

Additional observations from a re-analysis of the deposited data

How the results depend on the processing

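Over 17 alternatives each, Ahr, Ahrr, Cyp1b1, Tiparp and Cyp1a1 kept direction and call. The lowest and highest values were -2.34 and -1.92 for Ahr, -1.46 and -1.13 for Ahrr, -2.35 and -2.09 for Cyp1b1, -0.31 and -0.28 for Tiparp and 0.87 and 1.09 for Cyp1a1, with adjusted p of at most 0.0421 (Tiparp). Cyp1b1 fell further than Ahr with all probes averaged, with the authors' fold changes and without array 4. Nqo1 (0.33 to 0.44) was lost in 2, so that 1 of the 8 genes was higher with the table of fold changes and 1 with the 8 channels taken as separate samples. The latter drops the pairing of the pools on an array, which serves as replicate block. There 2069 genes were lower and 2040 higher, and with the authors' fold changes 2050 were lower and 1833 higher. Leaving out single arrays gave 2180 to 2813 lower and 2878 to 3345 higher genes, with 2180 lower without array 3. Arnt reversed to -0.0134 with median centering. Arnt2 reversed to 0.0166 with processed signals, 0.00446 with equal spread and 0.0374 with the authors' fold changes, and ran from -0.0920 to 0.0918 without single arrays, while Arnt2 minus Arnt ran from -0.0929 (without array 3) to 0.0862 (without array 2). Counts in the 6 pathway lists were small and moved, such as 0 to 6 NRF2 targets higher. A slide or scan block could not be fitted, as all arrays share 1 slide. The alternative with each probe tested separately was chosen after seeing the data. What caused the changes in calls was not tested.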

Other observations

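Array 2 gave the lowest log2 ratio of the 4 arrays for Ahrr (-1.51), Arnt2 (-0.28), Cyp1a1 (0.50) and Cyp1b1 (-2.64), and array 4 gave the highest for Ahr (-2.16), Arnt (0.13), Tiparp (-0.17) and Nqo1 (0.59). Without array 2, Arnt2 changed by 0.09 (limma, adjusted p = 0.283).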
